A study of Mus musculus with 4 samples.

Results

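The genes described here are 10 immediate early genes, taken from the 25827 genes counted in each library: Fos, Fosb, Jun, Junb, Jund, Egr1, Egr2, Nr4a1, Atf3 and Ier2. They were chosen by measured values of these libraries, because Fos and Egr1 led a progenitor state and Nr4a1 leaned higher in both knockout libraries. Their levels across cell states and genotypes are therefore given as a description. The genotype fits over all genes include them, and calls of members in fits of all 4 libraries are printed, but nothing is read from those calls. All 10 were detected, from 12292 UMIs (unique molecular identifiers, which tag each captured RNA molecule) of Nr4a1 to 274365 of Fos in the cells kept.

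Myogenic progenitors (MPs) were sorted from the tibialis anterior muscle of 12-week-old mice on day 6 after injection of cardiotoxin, which destroys myofibers and starts regeneration. The sort kept α7-integrin+ cells and removed cells positive for CD45, CD31 or Sca1. The 2 control libraries came from Pax7Cre mice, in which Cre is expressed from Pax7. The 2 miR-501KO libraries came from Pax7CremiR-501fl/Y males, which carry the same Cre and a floxed miR-501 on their single X chromosome. This Cre is not inducible, so recombination is not limited to the adult injured muscle. Each library pooled cells of 3 mice, and replicate 1 of both genotypes was from run 1 and replicate 2 from run 2. Mature miRNAs are not captured by these 3′ libraries, so the deletion itself was not checked here.

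Immediate early genes are transcribed within minutes of a signal from kinase-activated factors that are already bound or present in the cell, without new protein synthesis. Fos and Jun proteins pair into AP-1, Egr1 and Egr2 are zinc finger factors, Nr4a1 is an orphan nuclear receptor, Atf3 is a stress-induced member of the ATF/CREB family and Ier2 is a small nuclear protein. In muscle these genes mark the early activation of satellite cells, the Pax7-expressing stem cells, and they are also known to be induced while tissue is digested into single cells.

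To show what the promoters of such genes share, the windows from 250 bases before to 50 after the annotated start were read for the 8 members with an entry in the RefSeq table (build GRCm38.p6). Motifs are in capitals: the core of the cAMP response element (TGACG), the EGR site (GCGGGGGCG) and the CArG box bound by serum response factor, each searched on both strands, with none overlapping another in these 4 windows. The windows shown are those of Fos (chr12:85473640-85473939, plus strand), Fosb (chr7:19309996-19310295, minus strand), 1 of the 5 windows of Egr2 (chr10:67537619-67537918, plus strand) and Nr4a1 (chr15:101266596-101266895, plus strand).
Fos: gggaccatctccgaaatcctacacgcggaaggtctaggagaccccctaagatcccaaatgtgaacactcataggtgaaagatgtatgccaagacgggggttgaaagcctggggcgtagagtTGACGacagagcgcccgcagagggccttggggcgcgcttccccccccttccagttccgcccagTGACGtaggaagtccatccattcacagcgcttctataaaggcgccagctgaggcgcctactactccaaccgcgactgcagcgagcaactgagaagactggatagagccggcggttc
Fosb: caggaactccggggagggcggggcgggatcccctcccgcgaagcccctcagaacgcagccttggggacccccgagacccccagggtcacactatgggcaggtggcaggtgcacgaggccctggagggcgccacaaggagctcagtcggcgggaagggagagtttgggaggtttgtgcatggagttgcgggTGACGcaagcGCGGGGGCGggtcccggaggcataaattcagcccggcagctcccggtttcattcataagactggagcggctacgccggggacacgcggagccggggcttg
Egr2: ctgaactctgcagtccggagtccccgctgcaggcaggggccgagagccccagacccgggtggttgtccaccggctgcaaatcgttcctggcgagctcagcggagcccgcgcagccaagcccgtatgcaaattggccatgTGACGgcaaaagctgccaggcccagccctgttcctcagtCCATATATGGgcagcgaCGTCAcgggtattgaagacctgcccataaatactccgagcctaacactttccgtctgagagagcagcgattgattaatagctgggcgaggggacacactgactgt
Nr4a1: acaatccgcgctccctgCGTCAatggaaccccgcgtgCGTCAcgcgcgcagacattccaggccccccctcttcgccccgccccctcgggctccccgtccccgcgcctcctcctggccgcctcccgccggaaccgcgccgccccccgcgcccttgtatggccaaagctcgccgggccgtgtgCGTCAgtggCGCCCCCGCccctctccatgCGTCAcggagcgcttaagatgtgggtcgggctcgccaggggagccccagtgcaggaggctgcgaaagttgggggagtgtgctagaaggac
The core was found in 6 of the 8 genes (Fos, Fosb, Junb, Egr2, Nr4a1 and Atf3) and in 23.1% of the 27025 genes of the table. Nr4a1 held 4 copies and Fos held 2. The EGR site was found in Fosb and Nr4a1 and in 3.31% of all genes, and the CArG box in Egr2 and in 1.81% of all genes. The full cAMP response element (TGACGTCA), the AP-1 site (TGACTCA) and the site of Nr4a1 itself (AAAGGTCA) were in none of the 8 and in 2.03%, 5.95% and 1.70% of all genes. A match of letters is not a measured binding site. Sites further from the start, and the promoters of Egr1 and Ier2, which had no entry, were not searched.

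To show the sequence whose match was searched for, miR-501-3p, a mature product of the floxed gene (chrX:7241270-7241291, minus strand, GRCm38.p6, RefSeq), is given with its seed (bases 2 to 8) in capitals.
miR-501-3p: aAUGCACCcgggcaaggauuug
The reverse complement of this seed, GGTGCAT, occurred in the part of the transcript after the stop codon in 1 of the 10 members, Fos, at base 53 of 815, and in 6.48% of the 20785 coding genes of GENCODE vM21 searched in the same way. The other 9 members, Nr4a1 among them, had no such match in any transcript searched. Shorter or other kinds of match were not searched, and direct targeting was not tested.

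After a minimum of 5000 UMIs and 1000 genes per cell, the Pax7Cre libraries kept 3439 (replicate 1) and 1829 cells (replicate 2) and the miR-501KO libraries 2833 and 2349, with medians from 25254 to 34579 UMIs. Each SD given here is the spread between libraries. Cells were clustered without the 10 members and 50 other primary response genes. The quiescent-like (1766 cells, led by Chodl and Inhbb), cycling-like (2369 cells) and committed-like (1316 cells, led by Myog and by Myh3 and Myh8) classes were named from their markers, as were macrophage-like (345), mural-like (296) and Schwann-like (195) cells that passed the sort. Of the cells in miR-501KO replicate 1, 25.6% fell into clusters drawn over 90% from a single library, against 0, 0.0547% and 1.58% in the others, so values of this library are also given without these clusters where they moved most. Between 3 and 7 kept cells per library had a barcode that occurred in another library.

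Levels spanned more than an order of magnitude between members. They are given as CPM, the UMIs of the gene scaled to a common total over all genes, and because each molecule is counted once from its 3′ end, genes can be compared without correction for length. Over all cells Fos, the most abundant, had 644 and 842 CPM in the Pax7Cre libraries and 705 and 1091 in the miR-501KO libraries, with replicate 1 first. Both libraries of run 2 were above both of run 1 for Fos. Jund, the member known to be expressed without stimulation, was at 736, 742, 667 and 673 CPM in the same order of libraries. Its libraries differed by at most 1.11-fold, and those of Junb by 1.07-fold, while those of Fos differed by 1.69-fold.

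At the low end of the scale, Nr4a1 was at 25.9 and 28.7 CPM in the Pax7Cre libraries and at 52.2 and 38.4 in the miR-501KO libraries. The groups did not overlap for Nr4a1, with run 1 showing the larger gap. Egr2 was at 32.3, 58.4, 42.0 and 51.1 CPM, and Atf3 at 39.3, 60.6, 69.5 and 77.1. The other members lay between, with means of 136 CPM for Ier2, 268 for Fosb, 442 for Egr1, 545 for Jun and 563 for Junb. Without the single-library clusters miR-501KO replicate 1 moved from 705 to 784 CPM for Fos, from 462 to 522 for Jun, from 226 to 261 for Fosb, from 399.6 to 461 for Egr1 and from 136 to 119 for Ier2. Nr4a1 moved from 52.2 to 55.7 CPM in the same library. With all cells, run 2 exceeded run 1 in both genotypes for 8 of the 10 members, Junb and Nr4a1 being the exceptions.

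**Figure D1:**
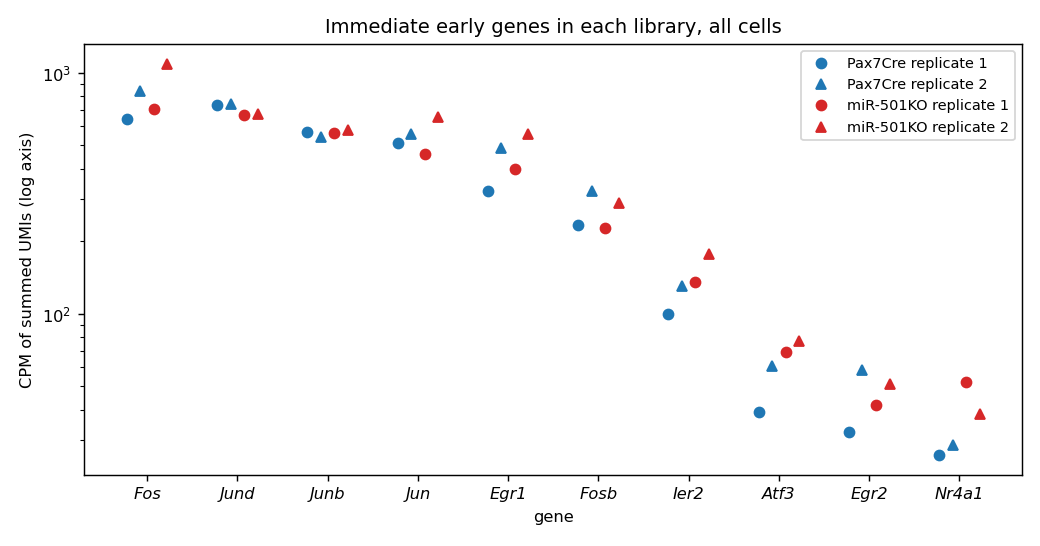
CPM of the 10 genes over all cells, on a log axis, with 1 point per library (blue Pax7Cre, red miR-501KO, circles replicate 1, triangles replicate 2). Fos, Jund, Junb and Jun lie highest and Nr4a1 lowest, with both red points above both blue points for Nr4a1.

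Of the 3 named progenitor classes, quiescent-like cells held the highest level of every member in 4 of 4 libraries. Fos in quiescent-like cells was at 919, 1419.9, 936 and 1961 CPM (the Pax7Cre libraries first, replicate 1 before 2), and in committed-like cells at 359.7, 457, 357 and 456. The ranges did not overlap. The 10 members were all higher in quiescent-like than in committed-like cells in 4 of 4 libraries, a pattern that 46.4% of the 8287 genes with at least 10 CPM also showed, and the rule had used cell states. The median log2 ratio of the members was 1.34, on the log2(CPM + 1) scale, beside 0.09 over all these genes. When cells were instead gated by single genes, Pax7 UMIs without Myog against Myog UMIs without Pax7, the median fell to 0.51 and 7 of 10 members stayed higher in 4 of 4 libraries. Under these gates the direction turned for Nr4a1, with a mean log2 ratio of -0.60, and for Atf3, with -0.14. The gates do not hold the same cells as the classes. In miR-501KO replicate 1, 918 cells had Myog without Pax7, while 255 cells were committed-like.

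Members differed in how steep this gradient was. Fosb, which pairs with Jun proteins as Fos does, had the largest ratio, 4.45-fold, with 347, 569, 364 and 502 CPM in quiescent-like and 94.4, 140.5, 87.9 and 78.6 CPM in committed-like cells. Atf3 was 3.49-fold (3.05 to 4.66 over the libraries) and Fos 3.08-fold higher (2.56 to 4.30). The place of Atf3 in this order depended on the unit, since the log2 ratio of its mean UMIs per thinned cell was 1.15, below 1.40 for Fos and 1.28 for Jun. Jun was 2.80-fold and Egr1 2.58-fold higher, and Ier2 2.52-fold. Egr2, Junb and Jund were close to one another, at 2.03-fold, 2.03-fold and 1.94-fold, and Nr4a1 was 1.64-fold higher (1.20 to 2.42). At a Leiden resolution of 1.0 the log2 ratio of Nr4a1 fell from 0.71 to 0.30.

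By their means, cycling-like cells lay between the other classes for 8 members and below committed-like cells for Egr2 and Nr4a1, in 4 of 4 libraries each. Nr4a1 in cycling-like cells was at 9.27, 15.5, 21.4 and 15.98 CPM, against 23.6, 27.8, 39.7 and 61.0 in quiescent-like cells. Among cycling-like cells, the cluster led by G2/M genes such as Cdc20 and Ccnb1 held less of 9 members than the cluster led by histone genes in 4 of 4 libraries. Fos was 1.78-fold higher in the histone-led cluster (1.47 to 2.21) and Egr1 1.61-fold (1.41 to 1.93). For Ier2, the exception, the ratio was 1.23 with a range of 0.99 to 1.35.

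Committed-like cells were made of a Myog-led cluster and a smaller one led by the sarcomeric genes Myh8 and Myh3. Egr2 was 4.78-fold higher in the Myog-led cluster (3.90 to 5.82), a wider gap than that between quiescent-like and committed-like cells. Fosb followed at 2.73-fold, but with a range of 1.38 to 8.04, and Fos was at 1.92-fold (1.17 to 4.39). Nr4a1 went the other way, at 0.75-fold (0.52 to 0.97). Atf3 was higher in 2 libraries and lower in 2.

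**Figure D2:**
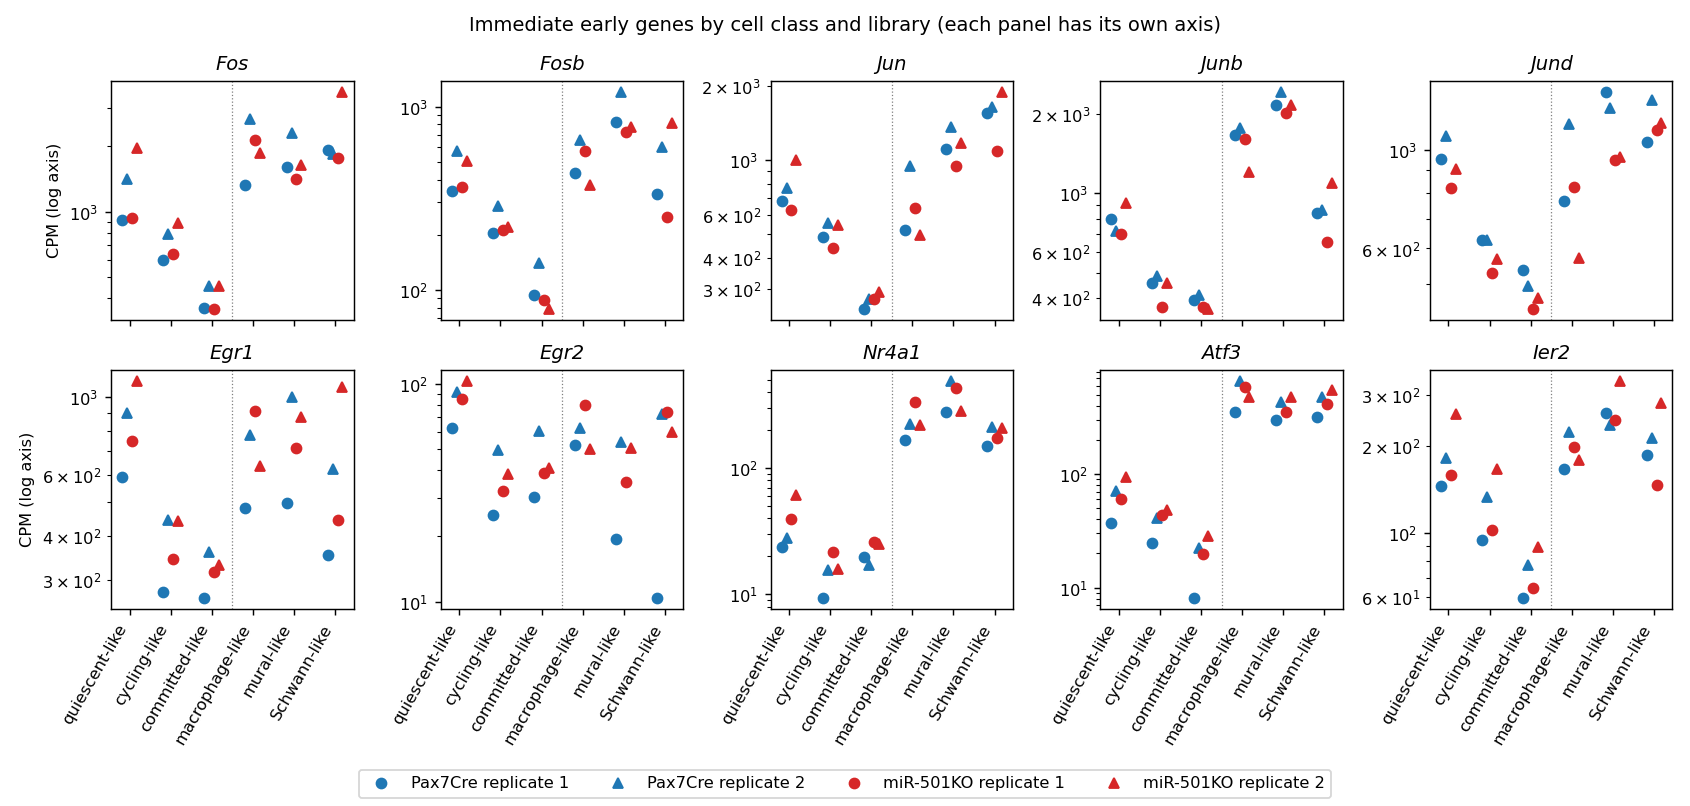
CPM of each gene (log axes, 1 per panel) in 6 classes of cells, with 1 point per library (blue Pax7Cre, red miR-501KO, circles replicate 1, triangles replicate 2). Left of the dotted line all 10 genes are highest in quiescent-like cells, and right of it Nr4a1 and Atf3 lie far above the progenitor classes.

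The 3 classes of cells that are not progenitors showed another order of members. Nr4a1 was at 168, 221, 335 and 220 CPM in macrophage-like cells, at 278, 486, 430 and 280 in mural-like cells and at 150.2, 211, 172 and 207 in Schwann-like cells. Compared with quiescent-like cells of the same library this was 6.44-fold, 10.1-fold and 5.17-fold higher. Atf3 was 8.11-fold, 6.15-fold and 6.91-fold higher in the same classes, with values from 297 to 658 CPM. No library of the 3 named progenitor classes reached these levels for either gene.

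Other members did not share this gap. Junb was at 1658, 1773, 1609 and 1203 CPM in macrophage-like and at 2155, 2425, 2014 and 2164 CPM in mural-like cells, 1.98-fold and 2.80-fold above quiescent-like cells, but only 1.09-fold above them in Schwann-like cells, with 1 library lower. Jun was 1.99-fold higher in Schwann-like cells (1549, 1640.2, 1085 and 1893 CPM). Egr2 ran in the opposite direction, at 0.71-fold, 0.44-fold and 0.51-fold of quiescent-like cells, lower in 4 of 4 libraries for each class. Egr1 was at 0.84-fold, 0.91-fold and 0.70-fold, lower in 3, 3 and 4 libraries.

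The composition of the AP-1 genes followed these differences. Among the UMIs of Jun, Junb and Jund, Junb made up 31.5% ± 2.32 (SD, n = 4) in quiescent-like cells, 51.9% ± 4.34 in macrophage-like cells and 49.2% ± 2.14 in mural-like cells. Jund made up 37.8% ± 4.24, 26.9% ± 1.96 and 25.2% ± 2.92 in the same classes. Among Fos, Fosb, Fosl1 and Fosl2, Fos made up 67.1% ± 5.72 of UMIs in quiescent-like cells, 71.6% ± 3.35 in committed-like cells and 75.2% ± 4.29 in macrophage-like cells. Egr1 gave 84.5% ± 1.56 of the Egr1 to Egr4 UMIs over all cells, while Egr4 gave 0.19% ± 0.02. Of the Nr4a UMIs, Nr4a1 gave 66.9% ± 7.01 in quiescent-like and 51.3% ± 7.29 in macrophage-like cells.

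A small unnamed cluster of 80 cells carried more of 8 members than any class of the same library, Fos and Atf3 being the exceptions. Its leading genes included Chrdl2 and Clmn. It had 9 quiescent but also 3 myofibre and 3 fibroblast markers raised, and 52 of its cells came from miR-501KO replicate 2, the only library with enough cells for a value. There Fos was at 3214 CPM, Fosb at 2007, Jun at 2241, Jund at 3065, Egr1 at 2155, Egr2 at 125 and Ier2 at 362. The quiescent-like cells of the same library were at 1961, 502, 1005, 905, 1112, 103 and 257 CPM. Nr4a1 at 288 and Atf3 at 401 CPM reached the range of the classes that are not progenitors, against 61.0 and 94.0 in quiescent-like cells of that library. Junb was at 2326 CPM, against 922. The median depth of the cluster was 9882.5 UMIs, against 22993.5 in quiescent-like cells, and the part of depth in this difference was not tested.

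Member RNA was spread unevenly over single cells. Cells were thinned to 5000 UMIs each to remove differences in depth. In quiescent-like cells the variance of Fos UMIs was 21.4 to 25.0 times their mean. The median over at least 5521 genes was 1.06 to 1.08, which placed Fos at or above the 99.9th percentile in each library. These genes were not matched for level to Fos, which had a mean of 6.94 UMIs. The 10% of quiescent-like cells with most Fos held 58.5% of all Fos UMIs (45.6 to 68.6). For Jund the ratio of variance to mean was 2.81 to 3.86, still at percentiles from 98.7 to 99.1 among the same genes. The 10% of cells with most Jund held 28.8% of its UMIs. In committed-like cells the ratio for Fos was 11.3 to 15.5.

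The summed UMIs of the 10 members had medians of 14, 18, 12.5 and 23 per thinned quiescent-like cell and of 7, 9, 7 and 8 per committed-like cell, in the order of libraries above. Of the quiescent-like cells, 0.23% had none. After thinning, Nr4a1 was seen in 9.90%, 10.9%, 14.4% and 15.8% of quiescent-like cells, and without thinning in 24.5%, 28.9%, 38.5% and 36.9%. Fos was seen in 45.4%, 50.4%, 40.8% and 66.0% of the thinned cells and in 67.2%, 69.5%, 67.8% and 79.5% without thinning. No class measured here is known to lack these genes, so the share that free RNA alone would give was not measured.

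Cells rich in 1 member tended to be rich in most others. Over the 45 pairs of members in thinned quiescent-like cells, Spearman's rho had a median of 0.21, and 43 pairs were positive in 4 of 4 libraries. These are correlations over cells of the same libraries, 382 to 515 per library, given as a description. No such count is given here for pairs of other genes, and the rule had named Fos and Egr1 as leading a state. The highest were Fos with Egr1 at 0.70 (0.65 to 0.72), Junb with Egr1 at 0.65 (0.60 to 0.67), Fos with Jun at 0.64 (0.60 to 0.68) and Fos with Junb at 0.63 (0.60 to 0.67). The 2 pairs that changed sign between libraries were Jund with Fos, at -0.03, and Jund with Jun, at 0.04.

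Jund thus stood apart from the group that carries its name, with a mean rho of 0.09 with the other 9 members, against 0.40 for Egr1, 0.39 for Fos and 0.37 for Junb. Its closest partner was Fosb, at 0.33 (0.31 to 0.36). Nr4a1, Atf3 and Egr2 had means of 0.18, 0.19 and 0.19, and these were also the members with fewest UMIs, which lowers any correlation over cells. At 10000 UMIs per cell the median over pairs was 0.28, and the pair of Fos and Jund was at 0.02.

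**Figure D3:**
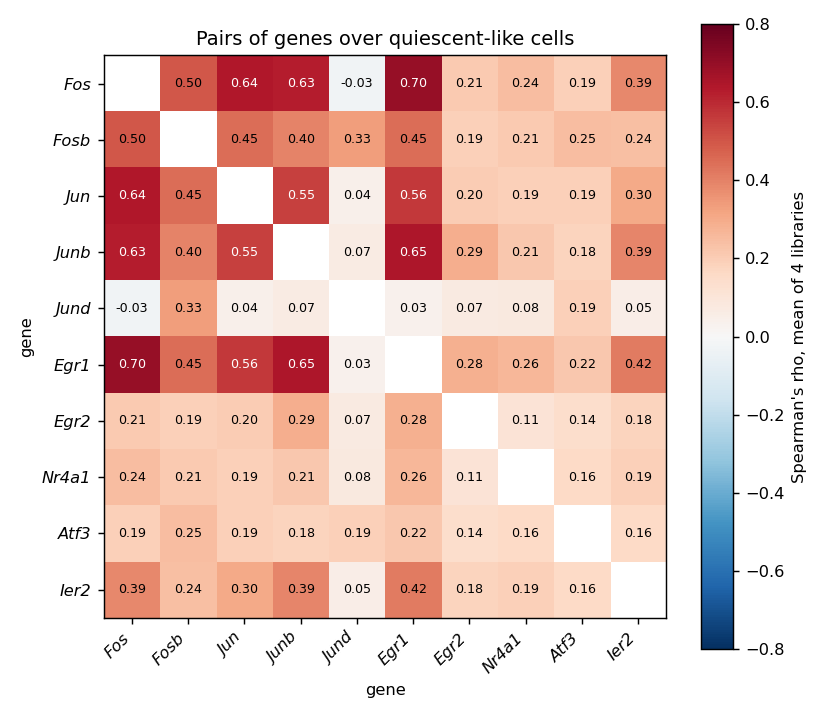
Spearman's rho of each pair of genes over quiescent-like cells thinned to 5000 UMIs, averaged over the 4 libraries (red positive, blue negative). Fos, Jun, Junb and Egr1 form the block of highest values, from 0.55 to 0.70, and the row of Jund is near 0 except with Fosb and Atf3.

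Genes that were no members but followed the same pattern over 43 sums of classes and libraries were mostly other early response genes. Among 8630 genes compared, Zfp36, which encodes an RNA-binding protein that destabilizes cytokine mRNAs, was closest to Fos (Pearson's r of 0.88) and second for Junb (0.88). Mafk, a small Maf factor, was closest to Fosb (0.90) and Zfp36l1, a relative of Zfp36, to Egr1 (0.86). Ppp1r15a, which encodes a stress-induced phosphatase subunit, was among the nearest 3 for both Junb (0.87) and Egr1 (0.86). Sertad1 (0.84) and Socs3 (0.81) were near Ier2. Nr4a1 and Atf3 had each other among their nearest genes (0.89), and both had Pid1 (0.88 and 0.92). The sums share libraries and classes, and the classes that are not progenitors lie far out for Nr4a1 and Atf3.

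Quiescent-like cells were then ordered by their summed UMIs of the 10 members, and the 25% of cells with most (high load) were compared with the 25% with fewest (low load) in each library for all other genes. The median high-load cell held 52, 64, 50 and 76 member UMIs and the median low-load cell 5, 6, 5 and 7, after thinning. Of 37 other primary response genes with at least 50 CPM, 25 were higher with member load in 4 of 4 libraries and 3 were lower, with a median log2 ratio of 1.24 (CPM + 1). Over all 2927 genes outside the members at this level, 12.7% were higher and 16.2% lower in 4 of 4 libraries, with a median of -0.03. The other primary response genes were chosen with results of these data known.

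Zfp36 was 18.1-fold higher with member load, at 539, 774, 496 and 897 CPM in high-load cells and 45.4, 25.03, 35.8 and 38.4 in low-load cells. Klf2, a zinc finger factor, was 11.2-fold higher, and Btg2, an antiproliferative early gene, 10.7-fold. Socs3, an inhibitor of cytokine signaling, was 10.1-fold, Ccn1 10.0-fold and the Notch target Hes1 8.01-fold higher. In the other direction the AP-1 gene Fosl1 was at 0.18-fold, with 11.1, 23.3, 29.8 and 3.39 CPM in high-load and 70.4, 89.7, 67.4 and 80.1 in low-load cells. Osmr, the oncostatin M receptor, at 0.27-fold, Plaur, the urokinase receptor, at 0.28-fold, Timp1, a protease inhibitor, at 0.29-fold and Spp1, which encodes osteopontin, at 0.32-fold were also lower in every library.

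**Figure D4:**
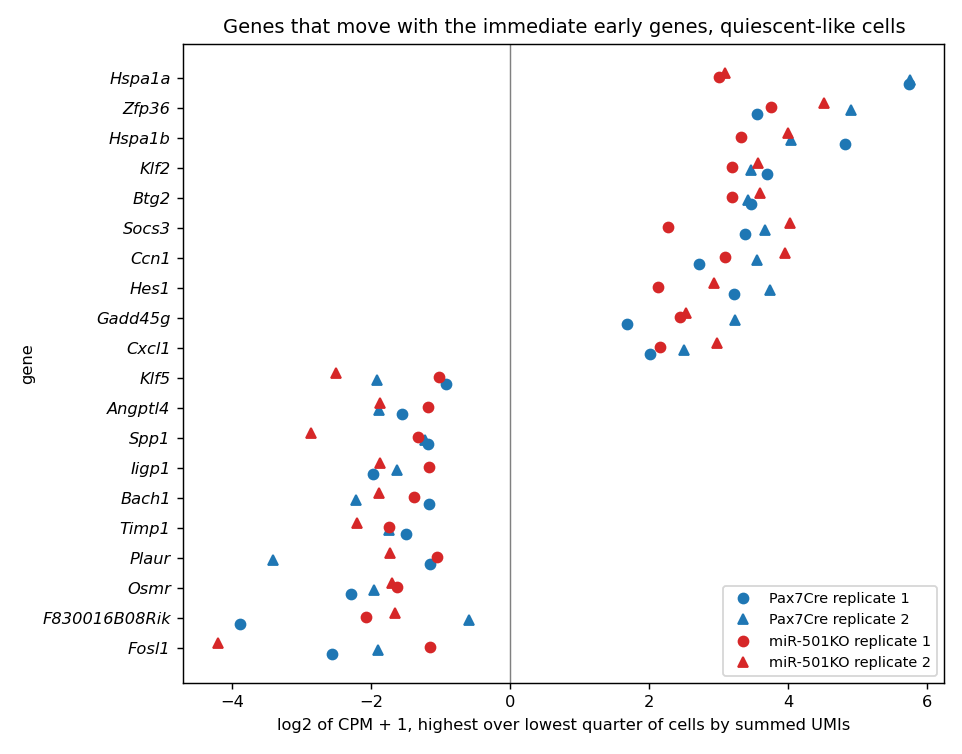
log2 ratio (CPM + 1) of 20 named genes outside the members between the 25% of quiescent-like cells with most and the 25% with fewest UMIs of the 10 members, with 1 point per library (blue Pax7Cre, red miR-501KO, circles replicate 1, triangles replicate 2). The 10 upper genes are above 0 and the 10 lower genes below 0 in 4 of 4 libraries.

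Heat shock genes moved with member load as well. Hspa1a, an inducible Hsp70 gene, was 21.0-fold higher in high-load cells, at 384, 277, 209 and 692 CPM against 6.26, 4.17, 25.3 and 80.1. Its log2 ratios (CPM + 1) were 5.73 and 5.75 in the Pax7Cre libraries, on few low-load UMIs, and 3.00 and 3.09 in miR-501KO. The near-identical copy Hspa1b was 16.4-fold higher. Reads of the pair may be split between them. Of 15 heat shock genes at this level, 11 were higher in 4 of 4 libraries and 1 was lower, with a median log2 ratio of 0.52. The most abundant of the list had small ratios, a log2 of 0.16 for Hsp90ab1 and 0.38 for Hspa8, both above 0 in 4 of 4 libraries. Whether handling of the cells has a part in the member levels was not tested. The depth of both sets was close, with medians from 19332 to 24748 UMIs in high-load and from 21752.5 to 26802.5 in low-load cells, and the mitochondrial share was 4.46% to 5.28% and 4.17% to 5.03%.

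Genes that encode the kinases and factors upstream of the members were far less graded. Of 20 regulators and partners with at least 10 CPM, 10 were higher in quiescent-like and 5 in committed-like cells in 4 of 4 libraries, with a median log2 ratio of 0.35 (CPM + 1). Atf4, a factor of the integrated stress response and the most abundant of the list, was at 184 CPM ± 29.7 in quiescent-like and 145 CPM ± 23.3 in committed-like cells (SD, n = 4), and was higher in quiescent-like cells in 4 of 4 libraries. Map2k2, a kinase of the MAP kinase cascade, went the other way, at 121 CPM ± 6.62 and 272 CPM ± 14.2. Nab1, which encodes a corepressor of Egr proteins, was at 54.3 CPM ± 7.89 and 47.4 CPM ± 1.35. Of the 44 other primary response genes at 10 CPM, 37 were higher in quiescent-like and 5 in committed-like cells in 4 of 4 libraries. Nfkbia, an inhibitor of NF-kappaB, was at 543 CPM ± 19.4 and 162 CPM ± 23.8, while Btg1 was at 520.03 CPM ± 22.02 and 707 CPM ± 76.9. Of 16 heat shock genes 6 were higher in quiescent-like and 8 in committed-like cells.

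The comparison of genotypes asked whether the early response differs in MPs without miR-501. In quiescent-like cells Nr4a1 was at 23.6 and 27.8 CPM in the Pax7Cre libraries and at 39.7 and 61.0 in the miR-501KO libraries. Both miR-501KO libraries were above both controls, by 0.75 on the log2 scale in run 1 and 1.13 in run 2. The edgeR quasi-likelihood fit over all genes gave a log2 fold change of 0.92 (SE 0.19). None of the 10 members passed an adjusted p of 0.05 in this fit, and the share of all 12216 genes that passed was 0%. At an unadjusted p under 0.05 there were 375 genes, and DESeq2 called 1 gene, the muscle troponin gene Tnnt3, named only for this call. With the run as a replicate block, 12 genes were called, Nr4a1 among them with a log2 fold change of 0.88 (SE 0.20). As the rule used this contrast, nothing further is read from the call. Without 1 library at a time the log2 fold change of Nr4a1 ranged from 0.51 to 1.23. Hspa1a in the same cells was at 125 and 98.3 CPM in the controls and at 73.2 and 296 in miR-501KO, so the library with most Nr4a1 also held most Hspa1a, and the part of this in the result was not tested.

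In the sum of all cells, Nr4a1 had a log2 fold change of 0.72 (SE 0.15), and of 0.71 without the single-library clusters. None of the 10 members was called by edgeR, with 0% of 15725 genes passing and 440 genes at an unadjusted p under 0.05. DESeq2 called 13 genes, Nr4a1 among them, and nothing is read from this call either, since the rule used the lean of Nr4a1. Cycling-like cells gave 0.59 (SE 0.19) for Nr4a1, but run 2 alone gave 0.04 and run 1 gave 1.21. Committed-like cells gave 0.45 (SE 0.16), with 19.7 and 17.05 CPM in the controls and 26.1 and 25.2 in miR-501KO. No member was called by edgeR in either class, where 0.00748% of 13366 genes (Dcn alone) and 0.00834% of 11985 genes (Hspa1b alone) passed. At an unadjusted p under 0.05 there were 358 and 406 genes. DESeq2 called Dcn and Cxcl2 in the former and Hspa1b, Ankrd1 and Thbs1 in the latter, so no member.

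Since Nr4a1 was several-fold higher in cells that are not progenitors, the share of these cells is given beside the sum over all cells. Macrophage-like, mural-like and Schwann-like cells made up 7.27% and 7.11% of the Pax7Cre libraries and 9.21% and 8.30% of the miR-501KO libraries. Over the 3 named progenitor classes and a cluster of 2359 cells led by Spp1, which left these cells out, Nr4a1 was at 13.4, 17.7, 27.6 and 24.4 CPM, and its log2 fold change was 0.70. In the Spp1-led cluster alone Nr4a1 was at 11.4 and 15.4 CPM in the controls and at 30.05 and 14.5 in miR-501KO, so the groups overlapped and run 2 leaned the other way (log2 1.40 in run 1 and -0.08 in run 2). Within quiescent-like cells all 12 macrophage markers were detected in every library, and they summed to 30.5 to 35.5 CPM in Pax7Cre and 25.0 to 41.9 in miR-501KO. The 9 mural markers summed to 694 to 712 and 641 to 720 CPM, and the 8 Schwann markers to 14.3 to 16.1 and 13.9 to 16.7 CPM. These ranges overlapped between genotypes, and no marker was at 0 in every library. In committed-like cells the mural sum was 4148 to 4802 CPM in Pax7Cre and 3786 to 4894 in miR-501KO. Over all cells it was 2057 to 2651 and 2281 to 2317 CPM, so this sum does not measure mural RNA alone.

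Atf3, which pairs with Jun proteins, leaned the same way as Nr4a1. In quiescent-like cells it was at 37.4 and 71.0 CPM in the controls and at 60.3 and 94.0 in miR-501KO, so the groups overlapped although each run gave a higher value in miR-501KO (log2 0.69 and 0.40). The fitted log2 fold change was 0.47 (SE 0.23). In committed-like cells Atf3 was at 8.03 and 22.4 against 19.7 and 28.7 CPM, with a fitted value of 0.73 (SE 0.32), and the fit with the replicate block called it, at 0.79 (SE 0.18), among 61 genes. The crossed block, which goes against the run numbers of the titles, did not call it. With 1 library left out its value ranged from 0.16 (without Pax7Cre replicate 1) to 1.54 (without Pax7Cre replicate 2).

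Jund leaned lower. It was at 953 and 1076 CPM in quiescent-like cells of the controls and at 822 and 905 in miR-501KO, with a log2 fold change of -0.29 (SE 0.16). For Jund both miR-501KO libraries were below both controls in all cells and in each of the 3 progenitor classes.

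Members whose genotype groups did not overlap are listed for all cells and the 3 named progenitor classes. Beside them stand the shares of all genes with at least 10 CPM that behaved alike. The share was not computed for the Spp1-led cluster, where Fos, Jun and Egr1 lay higher without overlap and Junb and Jund lower. Fos was there at 575 and 622 CPM in the controls and at 713 and 896 in miR-501KO. In quiescent-like cells 1 member, Nr4a1, lay higher in both miR-501KO libraries (16.6% of 7736 genes) and 1, Jund, lower (8.34%). Over all cells 3 lay higher, Nr4a1, Atf3 and Ier2 (9.72% of 8088 genes), and Jund lower (10.6%). Without the single-library clusters the groups overlapped for Ier2 (99.9 and 131 CPM against 119 and 178), and over the progenitors defined above they overlapped for Ier2 (91.1 and 128 against 107.5 and 170.2) and for Atf3 (19.4 and 37.6 against 36.4 and 48.0). Of the members in cycling-like cells, Nr4a1 and Atf3 lay higher (10.1% of 7783 genes) and Jund lower (8.71%). Jun and Nr4a1 lay higher (11.6% of 7310 genes) and Fosb, Junb and Jund lower (10.9%) in committed-like cells, where Fosb was at 94.4 and 140.5 CPM in the controls and at 87.9 and 78.6 in miR-501KO. Fos overlapped between genotypes in quiescent-like cells, with a log2 fold change of 0.27 (SE 0.26), as did Egr1 at 0.27 (SE 0.20), Egr2 at 0.23 (SE 0.17), Ier2 at 0.30 (SE 0.19), Jun at 0.12 (SE 0.20), Junb at 0.04 (SE 0.17) and Fosb at -0.13 (SE 0.20).

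**Figure D5:**
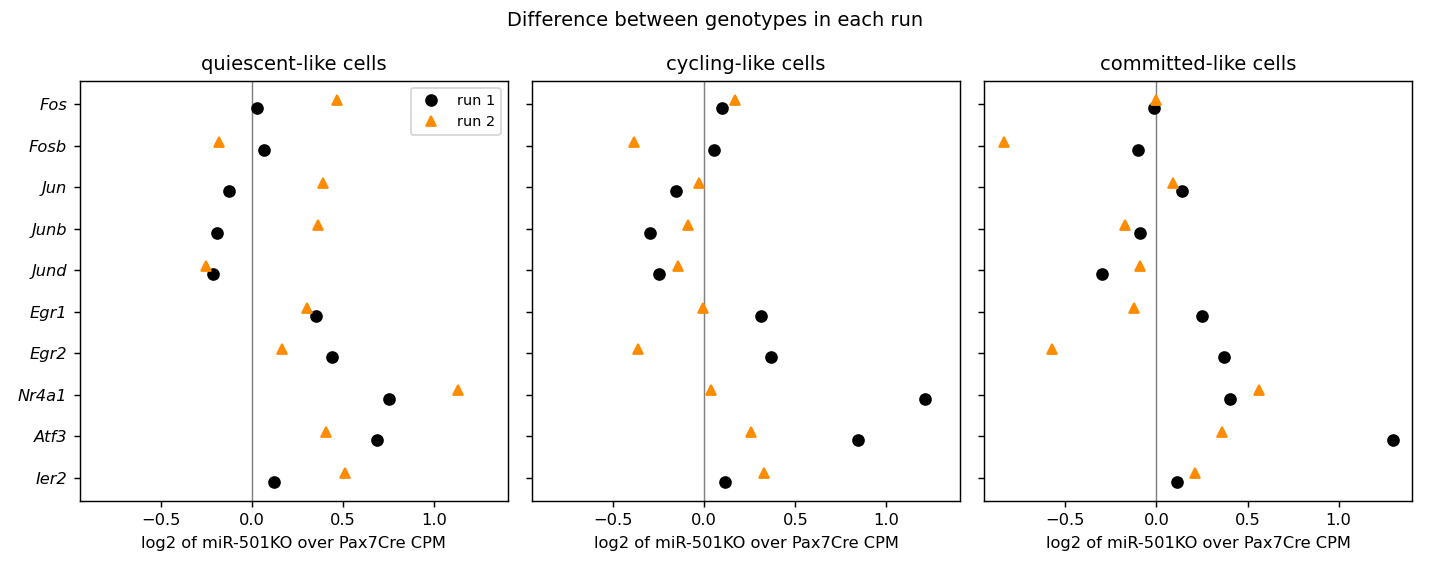
log2 ratio of miR-501KO over Pax7Cre CPM for the 10 genes in 3 progenitor classes, with run 1 as black circles and run 2 as orange triangles. Nr4a1, Atf3 and Ier2 are right of 0 and Jund left of 0 in both runs and all 3 classes.

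The other primary response genes gave 0 calls in the edgeR fit of any class, with 49 tested in quiescent-like cells, of which 3 had an unadjusted p under 0.05. Over all cells 0 of 50 were called, 5 had an unadjusted p under 0.05, and DESeq2 called Gadd45g and Hes1, named here for these calls. It called none in the other fits. An unadjusted p under 0.05 was reached by 3 of 50 in cycling-like cells and by 4 of 49 in committed-like cells. The medians of their log2 fold changes were 0.02 in committed-like cells, 0.09 in cycling-like cells, 0.08 in quiescent-like cells and 0.09 over all of them, beside medians within 0.01 of 0 over all genes tested.

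Of the heat shock genes, 1 of 16 was called, in committed-like cells. Hspa1b rose there in miR-501KO, with 18.2 and 19.7 CPM in the controls and 39.7 and 56.4 in miR-501KO (log2 fold change 1.34, SE 0.18, edgeR adjusted p = 0.0462). Over the alternatives with all 4 libraries its edgeR or DESeq2 adjusted p ranged from 9.25e-12 to 0.273. With the run as a replicate block the edgeR adjusted p was 4.34e-10. The highest value, at which it was not called, came from the edgeR fit with the runs paired crosswise. That pairing goes against the run numbers of the titles and was chosen after seeing the data. Its copy Hspa1a was at 27.1 and 30.6 against 39.5 and 64.8 CPM, at 0.85 (SE 0.21, edgeR adjusted p = 0.576). In the same class 15 of the 16 heat shock genes had a positive log2 fold change, with a median of 0.19. None of the 21 or 22 regulators and partners tested was called by edgeR in any class, with at most 1 per class at an unadjusted p under 0.05 and none called by DESeq2.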

How the data were processed

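Each library was made from RNA of sorted cells pooled from 3 mice. The authors ran Cell Ranger, and deposited filtered matrices of UMI counts per gene and cell, with no normalization. The file headers name another version than the study's methods, and the build in the submitters' notes (GRCm39) is not that of the RefSeq sequences and GENCODE transcripts used here (GRCm38), so these were joined by symbol only. Barcodes below 5000 UMIs or 1000 genes were left out and the rest clustered with scanpy 1.11.5 (Leiden resolution 0.5, 2000 variable genes without members and other primary response genes). Clusters were named from marker lists, with no doublet caller run.

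Counts were summed per library and class and compared between genotypes with edgeR 4.0.16 (TMM, quasi-likelihood, Benjamini-Hochberg adjustment over all genes, called below 0.05), with DESeq2 1.42.0 as an alternative. The scripts were tested on simulated data. With 2 libraries per genotype, a p measures only the spread between pools. The titles give both genotypes the same run numbers, but deviations of equal numbers did not correlate (0.03 in committed-like, -0.21 in cycling-like, -0.21 in quiescent-like and 0.02 in all cells). A crossed block, which goes against the run numbers of the titles, was therefore added after seeing the data. Fits over progenitors only and with members kept in the clustering were also added then.

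Members, marker and gene lists were chosen with earlier results of these data known. Genes outside the members are named if among the 3 most similar to a member over sums of at least 20 cells, if among the 10 largest ratios by load in each direction with 1 sign in 4 of 4 libraries and at least 50 CPM, if called in a genotype fit, or if among the 5 most abundant of their list. Some genes that meet this rule are not reported here. Shares of cells carry counting error as well as the spread between libraries.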

Additional observations from a re-analysis of the deposited data

Results flagged for a closer look

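Fos and Jun are listed because their genotype ratios had opposite signs in different classes, each sign in both runs. Only the 6 named classes were searched, and none of these differences was tested. In an unnamed cluster of 110 cells led by interferon-induced genes, not searched, Nr4a1 (-0.60 and -0.80) and Atf3 (-0.42 and -0.48) were lower in miR-501KO in both runs, opposite to quiescent-like cells. These ratios rest on few UMIs, with overlapping groups. The Pax7Cre libraries held 34 and 9 UMIs of Nr4a1 and the miR-501KO libraries 54 and 4, with replicate 1 first. For Atf3 the UMIs were 10 and 29 against 18 and 16. Fos was higher in miR-501KO in quiescent-like cells (log2 ratios of 0.03 in run 1 and 0.47 in run 2) and in cycling-like cells (0.10 and 0.17), and lower in committed-like (-0.01 and -0.0027) and mural-like cells (-0.19 and -0.49). The mean log2 ratio of Fos in quiescent-like cells exceeded that in committed-like cells by 0.254 and that in mural-like cells by 0.586. In cycling-like cells it exceeded the same classes by 0.142 and 0.474. Jun was higher in miR-501KO in committed-like cells (0.14 and 0.09) and lower in cycling-like (-0.15 and -0.03) and mural-like cells (-0.23 and -0.21), and the mean ratio in committed-like cells exceeded those by 0.207 and 0.337.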

How the results depend on the processing

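The number of genes called between genotypes depended on the fit. With the run as a replicate block edgeR called 61 genes in committed-like, 25 in cycling-like and 12 in quiescent-like cells, and none in the sum of all cells. With the runs crossed, an alternative chosen after seeing the data, it called 1, 3 and 1. Without a filter on low counts 58 genes were called in committed-like and 59 in cycling-like cells. By DESeq2 3 genes were called in committed-like, 2 in cycling-like and 1 in quiescent-like cells, and 13 over all cells. With at most 10% mitochondrial UMIs, 4 were called in committed-like cells. Leaving out 1 library at a time gave 17 to 134 genes in committed-like, 1 to 39 in cycling-like and 2 to 143 in quiescent-like cells, and 0 to 3 over all cells, with the lone library of a group assumed to vary like the other group. The cause was not tested.

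Of the other primary response genes, DESeq2 called 2 in all cells, the replicate block 1 in quiescent-like and 1 in committed-like cells, and the fit without a filter 1 in committed-like and 1 in cycling-like cells. With 1 library left out, 0 to 2 were called in committed-like, 0 to 1 in cycling-like and 0 to 5 in quiescent-like cells. Heat shock genes called in committed-like cells numbered 3 without a filter, 2 with the block, 0 with the crossed block and 1 to 5 with 1 library left out, and in quiescent-like cells 0 to 4.

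With all 4 libraries in the fit, Nr4a1 was called with the replicate block in quiescent-like cells and by DESeq2 in all cells. Atf3 was called in committed-like cells without a filter and with the block. Fits without 1 library, where 1 group has a single library, also called members, and those calls are not listed here. As the members were chosen with the lean of Nr4a1 between genotypes known, the listed calls are a description only. Nr4a1, Atf3 and Jund kept the sign of their fold change in every alternative of the 4 fits, while the other 7 members changed sign in at least 1. For Nr4a1 and Jund the groups did not overlap in any of the 4 fits, so leaving out 1 library could hardly turn the sign. The rule had also used the lean of Nr4a1, so nothing is read from its kept sign. Fos ranged from -0.43 to 0.74 in quiescent-like, Ier2 from -0.21 to 0.59 in cycling-like and Egr2 from -0.57 to 0.34 in committed-like cells. Under the gates on Pax7 and Myog, which do not hold the same cells as the classes, Nr4a1 and Atf3 reversed (log2 ratios of -0.60 and -0.14). The median log2 ratio of the members between quiescent-like and committed-like cells was 0.98 at Leiden resolution 1.0 and 0.51 with gates on Pax7 and Myog. Their median share of cells with a UMI rose from 50.4% to 61.2% at 10000 UMIs per cell and 78.3% without thinning, which follows from depth. The median pair correlation was 0.28 at 10000 UMIs and 0.25 over all cells.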
